A study of Mus musculus with 32 samples.

Results

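The 40 genes described here encode the kinases, cyclins, motors and chromosome-bound proteins that carry a cell through mitosis. They were taken by name from a fixed list of 40 gene symbols, and all 40 were found among the 33924 genes of the count table. The list was drawn up by function and not by a threshold on these values, though with earlier results of these data known. RNA was sequenced from sorted bone marrow progenitors of mice with a reversible Jak2v617f allele, the JAK2 mutation that drives myeloproliferative neoplasms. The cells were LSK cells, a lineage-negative Sca1+ Kit+ population that holds the stem cells, and MEP, the megakaryocyte-erythroid progenitors. Each cell type had 5 groups. In batch A, tamoxifen was given to activate Cre and remove the mutant allele, with libraries at day 3 (4 MEP, 3 LSK), at day 7 (3 MEP, 4 LSK) and under vehicle (3 MEP, 4 LSK). In batch C, the JAK inhibitor ruxolitinib was given, with libraries at day 7 (3 MEP, 3 LSK) and under vehicle (3 MEP, 2 LSK). All 32 libraries carry the Jak2v617f genotype, so no group lacked the mutation from the start. The mutant allele had been switched on outside the body with Dre mRNA before transplantation into irradiated recipients, so cells of the host may remain in a sort. The labels do not name the driver of the Cre, give no age or sex, and list no tamoxifen group without the removable allele. Vehicle libraries are labelled day 0, so treatment and time cannot be told apart. Batch is only a label here, and each treatment was set against the vehicle of its own batch. The vehicle libraries of batch C bear the animal numbers of vehicle libraries in batch A (12, 32 and 33 in MEP, 12 and 18 in LSK), and number 18 also occurs at day 7 in both LSK and MEP. Within each treatment, some MEP and LSK libraries also bear the same animal number. Whether equal numbers mean one animal is not stated, and p-values measure the spread between these libraries only.

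Mitosis is driven by cyclin-dependent kinase 1 bound to A- and B-type cyclins, with the polo-like and Aurora kinases acting beside it. Kinetochores tie chromosomes to the spindle, the spindle checkpoint holds the anaphase-promoting complex in check until all are attached, and that complex, switched on by CDC20, then destroys securin and cyclin B. Motor proteins and the central spindle separate the chromosomes and divide the cell. Most of these genes are transcribed in G2 and M phase under the MuvB-MYB-FOXM1 complexes, which act through a promoter element called the cell cycle genes homology region (CHR), often near CCAAT boxes bound by NF-Y. Erythroid progenitors divide rapidly as they mature, while many stem cells are out of cycle.

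RefSeq promoter windows on the mouse build GRCm38.p6, running from 250 bases before to 50 bases after the start of transcription, were found for 33 of the 40 members. They were searched on both strands for the CHR letters TTTGAA and TTCGAA and for CCAAT, each counted on its own, so that a CHR and a CCAAT match may share bases, and TTCGAA, which reads alike on both strands, counted once. At least 1 CHR match lay in 26 of the 33 windows (78.8%), against 5254 of 27025 genes with a window (19.4%). CCAAT was present in 25 (75.8%), against 37.9% of all genes, and both were present in 23 (69.7%), against 7.7% of all genes. The E2F letters TTTCCCGC and TTTGGCGC were searched too, and 0 of the 33 windows held them, against 1.63% of all genes. The first base of the 36 CHR matches had a median position of -1 relative to the annotated start base, and that of the 60 CCAAT matches had a median of -67. These are matches of letters and not mapped binding sites. The following 7 windows of 150 bases, from 120 before to 30 after the start, are shown because they span the range of responses described below. They hold the 3 genes that fell most in MEP at day 7 (Cdc20, Ccnb2, Cenpa), the gene that differed most between vehicle batches in MEP (Racgap1), the gene that fell most under ruxolitinib (Mki67) and the 2 with the smallest changes in MEP at day 7 (Anln, Pttg1). Sequences are from RefSeq, written 5′ to 3′ along the gene's strand, and capitals mark CHR and CCAAT matches on either strand.
Cdc20 (chr4:118437314-118437463, minus strand): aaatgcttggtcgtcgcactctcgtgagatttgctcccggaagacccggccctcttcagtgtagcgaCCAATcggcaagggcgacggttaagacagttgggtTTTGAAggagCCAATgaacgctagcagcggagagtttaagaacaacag
Ccnb2 (chr9:70421525-70421674, minus strand): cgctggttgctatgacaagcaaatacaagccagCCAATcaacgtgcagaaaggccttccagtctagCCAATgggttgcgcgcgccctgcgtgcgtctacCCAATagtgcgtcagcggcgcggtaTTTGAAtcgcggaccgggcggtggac
Cenpa (chr5:30666766-30666915, plus strand): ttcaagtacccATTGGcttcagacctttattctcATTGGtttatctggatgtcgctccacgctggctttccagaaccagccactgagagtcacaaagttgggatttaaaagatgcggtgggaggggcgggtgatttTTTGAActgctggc
Racgap1 (chr15:99651627-99651776, minus strand): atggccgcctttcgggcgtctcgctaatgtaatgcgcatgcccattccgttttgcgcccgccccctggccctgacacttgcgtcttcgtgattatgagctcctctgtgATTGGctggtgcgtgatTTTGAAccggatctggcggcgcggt
Mki67 (chr7:135716350-135716499, minus strand): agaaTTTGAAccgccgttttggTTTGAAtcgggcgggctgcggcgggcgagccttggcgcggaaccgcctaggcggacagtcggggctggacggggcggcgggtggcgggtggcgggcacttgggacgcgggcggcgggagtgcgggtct
Anln (chr9:22389177-22389326, minus strand): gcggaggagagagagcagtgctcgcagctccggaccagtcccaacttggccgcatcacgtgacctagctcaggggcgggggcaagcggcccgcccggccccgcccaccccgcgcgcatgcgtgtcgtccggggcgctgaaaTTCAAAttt
Pttg1 (chr11:43425952-43426101, minus strand): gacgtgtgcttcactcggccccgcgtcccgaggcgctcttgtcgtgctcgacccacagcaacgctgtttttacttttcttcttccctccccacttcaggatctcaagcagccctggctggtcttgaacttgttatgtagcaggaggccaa
The Cdc20 window holds 1 CHR match at -18 with CCAAT matches at -53 and -8, and that of Ccnb2 holds 1 CHR match at 5 with CCAAT matches at -87, -54 and -21. In Cenpa the CHR match is at 17 and the CCAAT matches are at -109 and -86. Racgap1 also has both, with CHR at 6 and CCAAT at -12. Mki67 and Anln show CHR letters without CCAAT in this stretch, and Pttg1 shows neither. Among members with a window, the median log2 change in MEP at day 7 over vehicle A was -0.94 for the 26 with a CHR match and -0.84 for the 7 without. It was -0.98 for the 25 with CCAAT and -0.67 for the 8 without. These medians are descriptions.

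**Figure D1:**
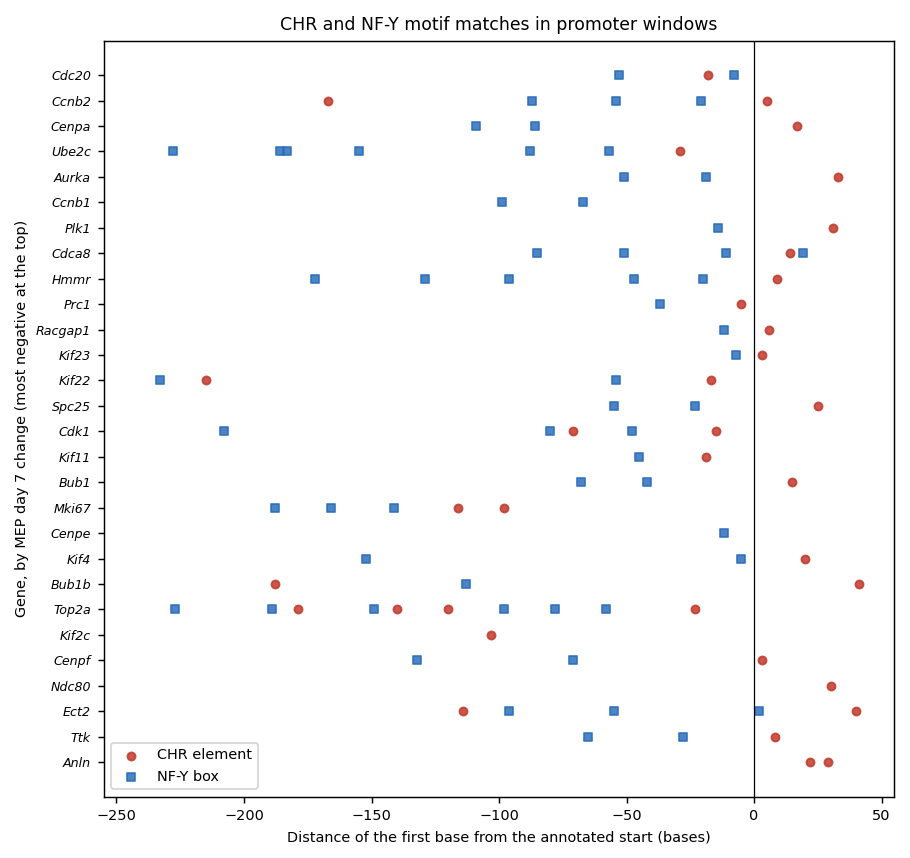
Positions of CHR matches (circles) and CCAAT matches (squares) in the RefSeq promoter windows of the 28 members with any match, as the distance in bases of the first base of the match from the annotated start. Genes run down the page by their log2 change in MEP at day 7 over vehicle A. Of the 36 CHR matches, 27 lie between 100 bases before and 50 after the start, with the median at -1, and 42 of the 60 CCAAT matches lie there, with the median at -67.

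Depth ranged from 11160696 to 55473241 counted reads per library, and all 40 members passed the filter on low counts in every fit. The lowest count of any member was 87, for Foxm1 in an LSK library at day 3. Levels are CPM, counts scaled to a common library size and by TMM, the trimmed mean of M-values, within a cell type, and the small number of libraries per group limits the precision of each mean. The TMM factors were 1.24 to 1.92 in MEP at day 7 and 0.94 to 1.18 under vehicle A, and 0.64 to 0.85 in MEP under ruxolitinib and 0.78 to 0.85 under vehicle C. Jak2 itself, the targeted gene, ran over 14.4 to 17.7 CPM under vehicle A, 13.9 to 21.9 CPM at day 3 and 11.8 to 25 CPM at day 7 in MEP, and over 17.6 to 31.5, 15.4 to 18.1 and 14.3 to 18.2 CPM at the same stages in LSK. It was called in 0 of the 6 comparisons with vehicle (lowest edgeR adjusted p = 0.215), and gene counts do not separate the mutant from the normal allele, so they do not check the deletion. Gata1, which defines erythroid commitment, stood at 469 to 765 CPM in MEP under vehicle A and at 118 to 154 CPM in LSK under vehicle A. Ly6a, the gene of Sca1, stood at 0 to 0.0409 CPM in MEP and 55.7 to 183 CPM in LSK of the same group. Gata1 and Ly6a thus differed in the direction that the sort names imply. Summed levels of megakaryocyte markers went against the MEP name. Under vehicle A they stood at 72.2 to 119.7 CPM in MEP and at 1022 to 1649 CPM in LSK. No marker in the 9 cell type lists was at 0 in all libraries of a group. Scaled to exon length, the members most abundant in MEP under vehicle A were Cdc20 at 239 CPM per kilobase, Ccnb2 at 199 and Plk1 at 168, and the least abundant were Foxm1 at 2.44 and Racgap1 at 5.605. In MEP at day 7, Cdc20 stood at 8.95 and Ccnb2 at 32.1 CPM per kilobase.

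After 7 days of tamoxifen, 27 of the 40 mitosis genes fell in MEP and none rose. The largest falls were in Cdc20, the activator of the anaphase-promoting complex, which was 25.8-fold lower than under vehicle A, in Ccnb2, a B-type cyclin, 6.04-fold lower, and in Cenpa, the histone that marks centromeres, 4.75-fold lower. The 40 log2 changes ranged from -4.69 to -0.11 with a median of -0.90, and every one lay below 0. Calls are from edgeR's quasi-likelihood F test, with a Benjamini-Hochberg adjusted p below 0.05 over all 25274 genes tested. By the same rule 7.03% of all genes, and 20.7% of the 8072 genes with a mean of at least 10 CPM, were lower at day 7. All genes had a median of 0.21 and those expressed genes one of -0.39. All day 7 libraries lay below all vehicle A libraries in 37 members, against 14.7% of all genes. The count was 14 without day 7 replicate 2, the library with the lowest depth and the highest TMM factor, 16 without vehicle A replicate 2, and 17 when libraries were scaled by their totals alone. The size of the fall depended on the scaling. The member median was -0.50 among expressed genes fitted alone, against 0.02 over those genes. With library totals alone it was -0.42, against 0.73 over all genes. In bulk libraries, fewer dividing cells and less RNA per dividing cell cannot be told apart.

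Among the 8 mitotic kinases, cyclins and FOXM1, 6 fell at day 7. Ccnb2 had 59.2, 30.9 and 49.8 CPM in MEP at day 7, against 210.1, 390.0 and 246 CPM under vehicle A, a log2 change of -2.60 ± 0.29 (SE, edgeR adjusted p = 4.96e-07). Ccnb1, the other B-type cyclin, had 259, 159 and 266 CPM at day 7, against 599.9, 635 and 539.9 CPM under vehicle A (-1.38 ± 0.24, edgeR adjusted p = 0.000348). In both cyclins the day 7 libraries lay below every vehicle library. Ccna2, the cyclin of S and G2 phase, had 8.24, 9.16 and 10.1 CPM at day 7, against 22.8, 30.5 and 30.1 CPM under vehicle A (-1.60 ± 0.25, edgeR adjusted p = 6.7e-05). Cdk1, the catalytic partner of these cyclins, had 158, 118 and 155 CPM at day 7, against 278.6, 294 and 231 CPM under vehicle A (-0.90 ± 0.22, edgeR adjusted p = 0.0102). Its log2 change was nearer 0 than those of the cyclins, a contrast that was not tested, and day 7 replicate 2 was its lowest library. Aurka, the Aurora kinase of centrosomes, had 97.9, 66.2 and 102 CPM at day 7, against 290.4, 284 and 196 CPM under vehicle A (-1.54 ± 0.26, edgeR adjusted p = 0.00017). Plk1, which acts from mitotic entry to cytokinesis, had 177, 91.3 and 149.9 CPM at day 7, against 378, 374 and 269.8 CPM under vehicle A (-1.29 ± 0.27, edgeR adjusted p = 0.00203). Neither kinase overlapped between groups. Foxm1, the transcription factor that activates many of these genes, was one of the 2 that missed the threshold: it had 11.55, 8.599 and 8.12 CPM at day 7, against 12.85, 15.6 and 10.4 CPM under vehicle A (-0.46 ± 0.32, edgeR adjusted p = 0.492), and its groups overlapped. Cdc25c, a phosphatase that activates CDK1, was the other, at -0.62 ± 0.22 (edgeR adjusted p = 0.0958).

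The anaphase-promoting complex genes held both the largest fall and one of the smallest changes of the 40. Cdc20 had 20.2, 6.40 and 21.25 CPM in MEP at day 7, against 365, 484 and 388 CPM under vehicle A (-4.69 ± 0.36, edgeR adjusted p = 2.38e-09). Ube2c, the ubiquitin-conjugating enzyme of the complex, had 155, 87.5 and 112 CPM at day 7, against 468, 389.8 and 282 CPM under vehicle A (-1.68 ± 0.26, edgeR adjusted p = 6.29e-05). No day 7 library reached the vehicle range for either gene. Pttg1, which encodes securin, a protein the complex destroys, had 40.6, 31.9 and 41.7 CPM at day 7, against 49.99, 40.6 and 39.4 CPM under vehicle A (-0.19 ± 0.22, edgeR adjusted p = 0.7), and these groups overlapped.

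Of the 4 spindle checkpoint genes 2 fell, Bub1, a checkpoint kinase (-0.85 ± 0.24, edgeR adjusted p = 0.026), and Mad2l1, the inhibitor of CDC20 (-0.84 ± 0.23, edgeR adjusted p = 0.0218). Bub1b, which encodes BUBR1, had 246, 153 and 254 CPM at day 7, against 366.5, 369.7 and 309 CPM under vehicle A (-0.68 ± 0.24, edgeR adjusted p = 0.096). Its groups did not overlap, yet it missed the threshold, as did the checkpoint kinase Ttk (-0.41 ± 0.23, edgeR adjusted p = 0.364). The checkpoint genes had a median log2 change of -0.76, with a range of -0.85 to -0.41.

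At the centromere and kinetochore 4 of 6 genes fell. Cenpa had 112, 34.2 and 79.85 CPM at day 7, against 331.5, 420.4 and 321 CPM under vehicle A (-2.25 ± 0.31, edgeR adjusted p = 1.44e-05). Its groups lay far apart. In the NDC80 complex, which binds microtubules, Nuf2 (-0.95 ± 0.23, edgeR adjusted p = 0.00778) and Spc25 (-0.98 ± 0.24, edgeR adjusted p = 0.0101) fell, while Ndc80 itself had 46.4, 38.7 and 51.1 CPM at day 7, against 61.2, 69.6 and 55.7 CPM under vehicle A (-0.45 ± 0.22, edgeR adjusted p = 0.283). All 3 Ndc80 libraries at day 7 were still below those under vehicle A. Cenpe, a kinetochore motor, fell (-0.80 ± 0.24, edgeR adjusted p = 0.0372), and Cenpf, a kinetochore and microtubule-binding protein, did not pass (-0.52 ± 0.23, edgeR adjusted p = 0.202).

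All 4 genes of the chromosomal passenger complex, which corrects faulty attachments and then moves to the midzone, fell. Birc5, which encodes survivin, had 157, 100.1 and 146 CPM at day 7, against 332, 356 and 273 CPM under vehicle A (-1.25 ± 0.25, edgeR adjusted p = 0.00114). Its groups did not overlap. Cdca8, encoding borealin, fell by a like amount (-1.27 ± 0.27, edgeR adjusted p = 0.00235). The kinase Aurkb (-0.79 ± 0.25, edgeR adjusted p = 0.0488) and the scaffold Incenp (-0.92 ± 0.29, edgeR adjusted p = 0.0483) passed narrowly.

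Of the 6 kinesin motors 4 fell. Kif11, which pushes spindle poles apart, had 182, 120.4 and 178.5 CPM at day 7, against 294, 328 and 269 CPM under vehicle A (-0.89 ± 0.25, edgeR adjusted p = 0.0227). Day 7 replicate 2 was the lowest, and no library overlapped. The Kif11 call was lost in 4 alternative settings. Kif20a, a motor of cytokinesis, changed by -1.16 ± 0.24 (edgeR adjusted p = 0.0019), Kif23, the motor of centralspindlin, by -1.04 ± 0.23 (edgeR adjusted p = 0.00411) and Kif22, a motor on chromosome arms, by -0.98 ± 0.25 (edgeR adjusted p = 0.0115). Kif4, which acts on chromosomes and the midzone (-0.73 ± 0.25, edgeR adjusted p = 0.0842), and Kif2c, a microtubule depolymerase (-0.61 ± 0.23, edgeR adjusted p = 0.115), did not pass.

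In spindle assembly and cytokinesis 4 of 7 fell. Tpx2, which activates Aurora A on the spindle, had 163, 104 and 142 CPM at day 7, against 283, 257 and 226 CPM under vehicle A (-0.91 ± 0.22, edgeR adjusted p = 0.00962). Racgap1, the GTPase-activating partner of KIF23 in centralspindlin, had 16.9, 15.2 and 16.3 CPM at day 7, against 25.3, 52.7 and 32.3 CPM under vehicle A (-1.19 ± 0.36, edgeR adjusted p = 0.0375). In both genes the day 7 libraries were the lower ones. Hmmr, a spindle pole protein (-1.22 ± 0.23, edgeR adjusted p = 0.000625), and Prc1, which bundles midzone microtubules (-1.19 ± 0.24, edgeR adjusted p = 0.00131), fell too. Nusap1, a microtubule-binding protein (-0.73 ± 0.25, edgeR adjusted p = 0.0729), Ect2, which activates RhoA for the cleavage furrow (-0.44 ± 0.27, edgeR adjusted p = 0.41), and Anln, an actin scaffold of the furrow (-0.11 ± 0.24, edgeR adjusted p = 0.848), did not pass.

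For chromosome structure, Mki67, a proliferation marker that coats mitotic chromosomes, had 262, 163 and 244 CPM at day 7, against 391.9, 477 and 318 CPM under vehicle A (-0.83 ± 0.25, edgeR adjusted p = 0.04). Top2a, the topoisomerase that untangles sister DNA, had 528, 369 and 551.5 CPM at day 7, against 869, 752 and 634 CPM under vehicle A (-0.64 ± 0.24, edgeR adjusted p = 0.117). Both were lower in every day 7 library, and only Mki67 passed. The Mki67 call depended on the processing: it was lost in 8 alternative settings, while Top2a newly passed in 2.

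**Figure D2:**
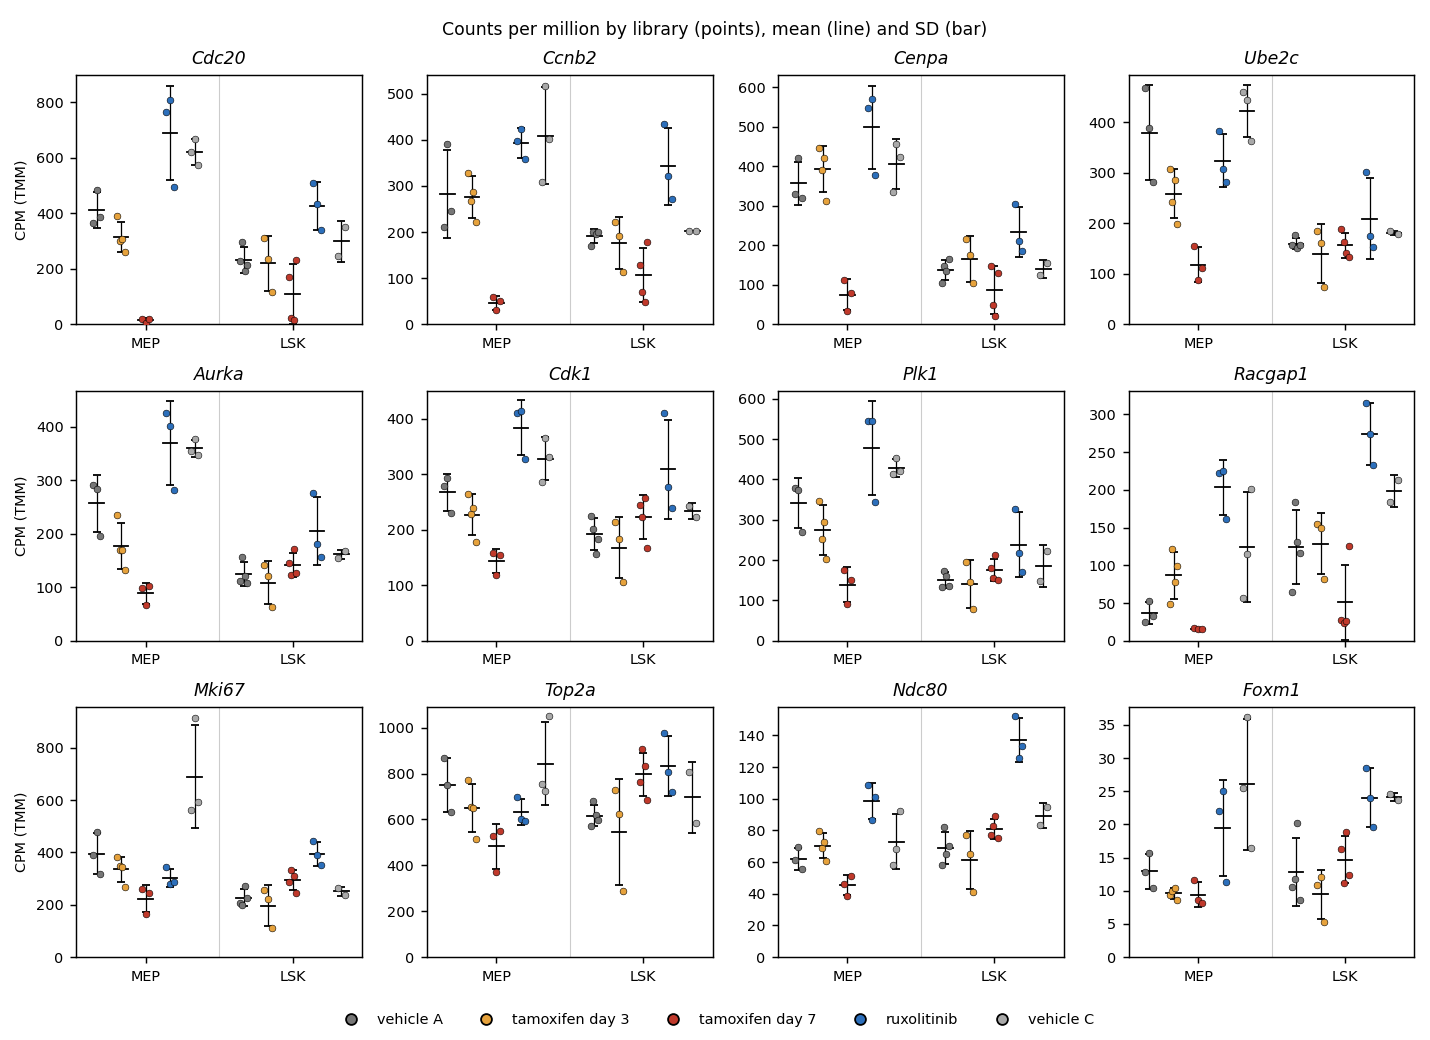
Levels of 12 members in CPM (linear axes from 0) in each library, with MEP at the left and LSK at the right of each panel and the groups in the order vehicle A, tamoxifen day 3, tamoxifen day 7, ruxolitinib, vehicle C. Points are libraries, lines are group means and bars are SDs. In MEP, Cdc20 lies at 6.40 to 21.25 CPM at day 7, against 365 to 484 CPM under vehicle A.

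The summed level of the 40 members was 4368 ± 1004 CPM in MEP at day 7 and 9187 ± 1172 CPM under vehicle A (SD, n = 3 each). As a share of all counts, with no TMM scaling, the members made up 0.6 to 0.698% at day 7 and 0.905 to 1.06% under vehicle A. Day 7 replicate 2 lay furthest down, with a median log2 ratio to vehicle A of -1.28 over the members, against -0.71 and -0.73 in the other 2 day 7 libraries. Summed levels of marker lists also differed in the same comparison, with ranges that overlapped for erythroid and macrophage markers. Over the 12 erythroid markers, all detected, the summed level was 10230 to 15940 CPM at day 7 and 14160 to 22160 CPM under vehicle A. The 12 LSK and stem cell markers summed to 832 to 1371 CPM at day 7 and 363 to 678 CPM under vehicle A. The megakaryocyte and platelet list summed to 305 to 544 CPM at day 7, against 72.2 to 119.7 CPM under vehicle A. For granulocyte and monocyte progenitors the sums were 56.35 to 70.45 CPM at day 7 and 19.8 to 20.3 CPM under vehicle A, and for neutrophils 38.4 to 52.2 CPM and 8.125 to 11.5 CPM. The B and plasma cell list stood at 42.2 to 63.8 CPM at day 7 and 13.1 to 14.5 CPM under vehicle A, and the T and NK cell list at 57.6 to 108 CPM and 12.7 to 31.6 CPM. Macrophage markers summed to 18.2 to 23.5 CPM at day 7 and 8.54 to 19.8 CPM under vehicle A, and mast cell and basophil markers to 25.15 to 33.9 CPM and 11.8 to 15.5 CPM. By edgeR, 4 of 12 erythroid markers were called lower. Called higher were 4 of 12 stem cell, 9 of 11 tested megakaryocyte and 3 of 9 tested granulocyte and monocyte progenitor markers. So were 2 of 9 neutrophil, 2 of 9 B and plasma cell and 1 of 5 tested T and NK cell markers. For macrophages it was 0 of 7, and for mast cells and basophils 2 of 7 tested. Over all genes 1.38% were higher and 7.03% lower. The part of these marker changes in the fall of the mitosis genes was not tested.

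Of 74 other mitosis genes, 32 were lower in MEP at day 7 and none higher, with a median log2 change of -0.74. These are to be read against 7.03% of all genes and 20.7% of expressed genes lower in the same fit, with medians of 0.21 and -0.39. The largest falls were in Trip13, a checkpoint ATPase (-2.99 ± 0.27, edgeR adjusted p = 2.73e-08), Fbxo5, an inhibitor of the anaphase-promoting complex (-2.64 ± 0.26, edgeR adjusted p = 1.01e-07), Plk4, the kinase of centriole duplication (-2.49 ± 0.40, edgeR adjusted p = 0.000105), and Anapc5, a subunit of that complex (-1.86 ± 0.32, edgeR adjusted p = 0.000269).

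After 3 days of tamoxifen none of the 40 members passed in MEP, where edgeR called 1.21% of all genes in either direction. At an unadjusted p below 0.05, 4 members differed, as did 6.78% of all genes, and DESeq2 called 1 member. The median log2 change of the members was -0.21, with 33 of 40 below 0, and that of all genes was 0.00. All day 3 libraries lay below all vehicle A libraries in 2 members, Kif23 and Ccnb1, against 3.55% of all genes. The widest departure was upward: Racgap1 had 48.45, 121, 78.4 and 99.2 CPM at day 3, against 25.3, 52.7 and 32.3 CPM under vehicle A (1.24 ± 0.34, edgeR adjusted p = 0.0788). That gene passed with DESeq2, without the filter on low counts, when the 2 groups were fitted alone and without day 3 replicate 1. The furthest down were Ube2c (-0.55 ± 0.24, edgeR adjusted p = 0.55) and Aurka (-0.54 ± 0.23, edgeR adjusted p = 0.562). Among genes with a mean of at least 10 CPM fitted alone, Aurka, Ccnb1 and Prc1 passed as lower. Cdc20 had 391.9, 301, 306 and 260.0 CPM at day 3, against 365 to 484 CPM under vehicle A, a log2 change of -0.39 ± 0.29. Ccnb1 stood at 525, 385, 474 and 373.5 CPM, against 539.9 to 635 CPM. Plk1 stood at 347, 251.5, 295 and 204 CPM, against 269.8 to 378 CPM. Ccnb1 was therefore lower in each day 3 library than in any vehicle library, and the other 2 overlapped. Cdk1 had 265, 228, 239 and 178 CPM at day 3, against 231 to 294 CPM under vehicle A, and Aurka had 235, 169.6, 169 and 131 CPM, against 196 to 290.4 CPM. Bub1b had 399, 303, 335 and 264 CPM, against 309 to 369.7 CPM, and Cenpa had 447, 391, 421 and 313 CPM, against 321 to 420.4 CPM. For Ndc80 the day 3 libraries held 79.7, 68.7, 72.4 and 60.6 CPM, against 55.7 to 69.6 CPM under vehicle A. In none of these 5 genes did the groups separate. Birc5 stood at 310.0, 218, 254 and 189.6 CPM at day 3, against 273 to 356 CPM under vehicle A, and Kif11 at 353, 261, 309 and 231 CPM, against 269 to 328 CPM. Tpx2 stood at 256, 214, 213 and 184 CPM, against 226 to 283 CPM, and Foxm1 at 9.345, 10, 10.5 and 8.58 CPM, against 10.4 to 15.6 CPM. For chromosome structure, Top2a held 771, 655, 652 and 516 CPM at day 3, against 634 to 869 CPM, and Mki67 held 381, 348.5, 344 and 269 CPM, against 318 to 477 CPM. All of these ranges overlapped too.

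Set directly against day 3, with no shared control, MEP at day 7 had 17 members lower and none higher, where 6.43% of all genes were lower by the same edgeR rule. All 40 log2 changes lay below 0, from -4.30 to -0.03 with a median of -0.69, against 0.18 over all genes and -0.33 over expressed genes. All day 7 libraries lay below all day 3 libraries in 35 members, against 10.8% of all genes. The exceptions were Top2a, Anln, Ect2, Pttg1 and Foxm1. Cdc20 differed by -4.30 ± 0.35 (edgeR adjusted p = 2.35e-09), Ccnb2 by -2.56 ± 0.28 (edgeR adjusted p = 2.14e-07), and Racgap1 by -2.43 ± 0.36 (edgeR adjusted p = 2.31e-05). Cenpa differed by -2.38 ± 0.30, Ccna2 by -1.21 ± 0.24 and Ube2c by -1.13 ± 0.24, with edgeR adjusted p of 2.75e-06, 0.000736 and 0.00237. At day 3, Ccnb2 had 329, 267, 288 and 221 CPM, Ccna2 20.65, 24.5, 23.35 and 16.4 CPM and Ube2c 308, 242.5, 287 and 199 CPM in the 4 libraries. The count was 6 without day 7 replicate 2, 9 without day 3 replicate 3 and 11 when libraries were scaled by their totals alone.

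**Figure D3:**
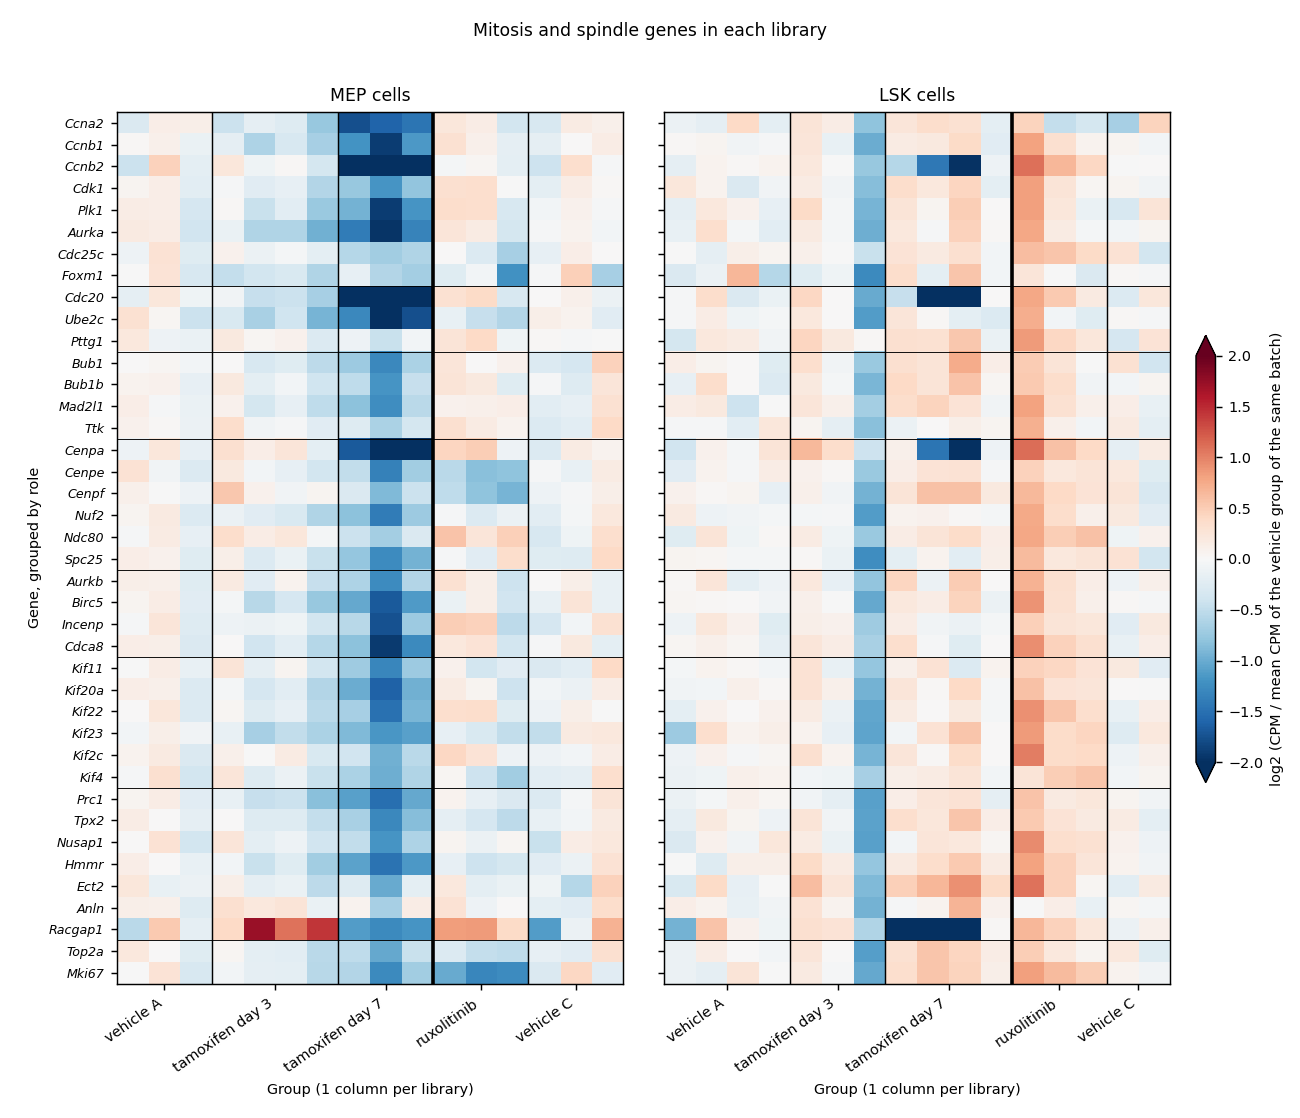
Log2 of the CPM of each member in each library over its mean in the vehicle group of the same batch, with MEP at the left and LSK at the right, columns in the order vehicle A, day 3, day 7, ruxolitinib, vehicle C, and genes grouped by role. Colours are clipped at 2 in either direction. The 3 MEP libraries at day 7 are below vehicle over most genes, with member medians of -0.71, -1.28 and -0.73.

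Under ruxolitinib, 3 of the 40 members were lower in MEP than under vehicle C and none was higher. By the same edgeR rule 38.5% of all genes were lower, and 6.76% of those with a mean of at least 10 CPM, so the members' share was near that of expressed genes. The member median log2 change was 0.03, with 19 below 0 and a range of -1.19 to 0.70, against -1.07 over all genes and 0.12 over expressed genes. MEP libraries under ruxolitinib detected 18876 to 24709 genes, and those under vehicle C 27855 to 30449. Mki67 had 343, 279.6 and 288 CPM under ruxolitinib, against 564, 915 and 591 CPM under vehicle C (-1.19 ± 0.25, edgeR adjusted p = 0.00104). Cenpf had 76.4, 61.9 and 56.6 CPM under ruxolitinib, against 101, 107 and 117 CPM under vehicle C (-0.74 ± 0.23, edgeR adjusted p = 0.012). Cenpe had 133.5, 108 and 111 CPM under ruxolitinib, against 189, 174 and 215 CPM under vehicle C (-0.72 ± 0.24, edgeR adjusted p = 0.0198). All ruxolitinib libraries lay below all vehicle C libraries in these 3 and in Top2a and Tpx2, 5 members in all, against 35.4% of all genes. The count was 1 without ruxolitinib replicate 3, 5 among expressed genes fitted alone and 11 when libraries were scaled by their totals alone. With both vehicle batches pooled, which treats vehicle libraries of equal animal number as separate, 2 members, Ndc80 and Racgap1, were higher and 3 lower, where 9.03% of all genes were higher and 48.9% lower.

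None of the 6 members with the largest falls at day 7 of tamoxifen passed under ruxolitinib. Cdc20 had 764, 807 and 497 CPM under ruxolitinib, against 623, 668 and 573 CPM under vehicle C (0.15 ± 0.31, edgeR adjusted p = 0.722). Cenpa had 548, 570.3 and 378 CPM, against 336, 457 and 425 CPM under vehicle C (0.30 ± 0.30), and Ccnb1 had 1047, 903 and 748 CPM, against 750.1, 850.2 and 935 CPM (0.09 ± 0.24). All 3 overlapped with vehicle C. The log2 changes of Ccnb2, Ube2c and Ccna2 were -0.06 ± 0.27, -0.38 ± 0.25 and 0.03 ± 0.24. Among the kinases, Cdk1 held 412, 415 and 327 CPM under ruxolitinib, against 287, 365 and 332 CPM under vehicle C, Plk1 546, 544 and 344 CPM, against 413, 454 and 421 CPM, and Aurka 426, 402 and 281 CPM, against 355, 377 and 346 CPM. Their log2 changes were 0.23, 0.16 and 0.04. Bub1b held 502, 479.6 and 355.5 CPM under ruxolitinib, against 413, 350.5 and 497 CPM under vehicle C (0.09 ± 0.24), and Birc5 379.6, 448 and 317 CPM, against 375, 495 and 374 CPM (-0.12 ± 0.24). None of these genes passed in edgeR. Ndc80 held 109, 86.3 and 101 CPM under ruxolitinib, against 58.4, 68.5 and 92.1 CPM under vehicle C (0.43 ± 0.22, edgeR adjusted p = 0.119), and Racgap1 223, 225 and 162 CPM, against 57.35, 115 and 202 CPM (0.70 ± 0.35, edgeR adjusted p = 0.109), the highest changes of the 40. Kif11 held 361, 264 and 291 CPM, against 279.1, 293 and 449.7 CPM under vehicle C (-0.16 ± 0.25), and Tpx2 278.5, 249 and 220.4 CPM, against 286, 305 and 357 CPM (-0.34 ± 0.22). These 4 did not pass. Top2a held 696.5, 603 and 595 CPM under ruxolitinib, against 754, 723 and 1051 CPM under vehicle C (-0.42 ± 0.24, edgeR adjusted p = 0.168), and Foxm1 22.1, 25.1 and 11.3 CPM, against 25.5, 36.1 and 16.5 CPM (-0.42 ± 0.32). Markers moved here too. All 9 marker lists are given for this comparison. Stem cell markers summed to 860.3 to 896 CPM under ruxolitinib and 286 to 635 CPM under vehicle C, megakaryocyte markers to 287 to 442 CPM and 48.3 to 119.6 CPM, and erythroid markers to 22370 to 25880 CPM and 22970 to 24950 CPM. Granulocyte and monocyte progenitor markers summed to 63.7 to 210.2 CPM under ruxolitinib and 6.597 to 19.3 CPM under vehicle C, and T and NK cell markers to 92.3 to 116 CPM and 7.05 to 39.6 CPM. The neutrophil list summed to 0.646 to 2.055 CPM under ruxolitinib and 2.13 to 8.21 CPM under vehicle C, and the B and plasma cell list to 8.66 to 18.0 CPM and 4.27 to 12.4 CPM. Of 5 tested T and NK cell markers, edgeR called 4 lower and 1 higher, with a median log2 change of -2.23. Of 9 B and plasma cell markers 3 were lower and 2 higher, with a median of -1.46. The sums of these lists therefore do not describe most of their markers. Over all genes 38.5% were lower and 3.43% higher. For macrophages the sums were 4.49 to 12.5 CPM under ruxolitinib and 4.92 to 11.2 CPM under vehicle C, and for mast cells and basophils 19.4 to 52.8 CPM and 3.72 to 8.97 CPM. The part of these marker changes in the results was not tested.

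**Figure D4:**
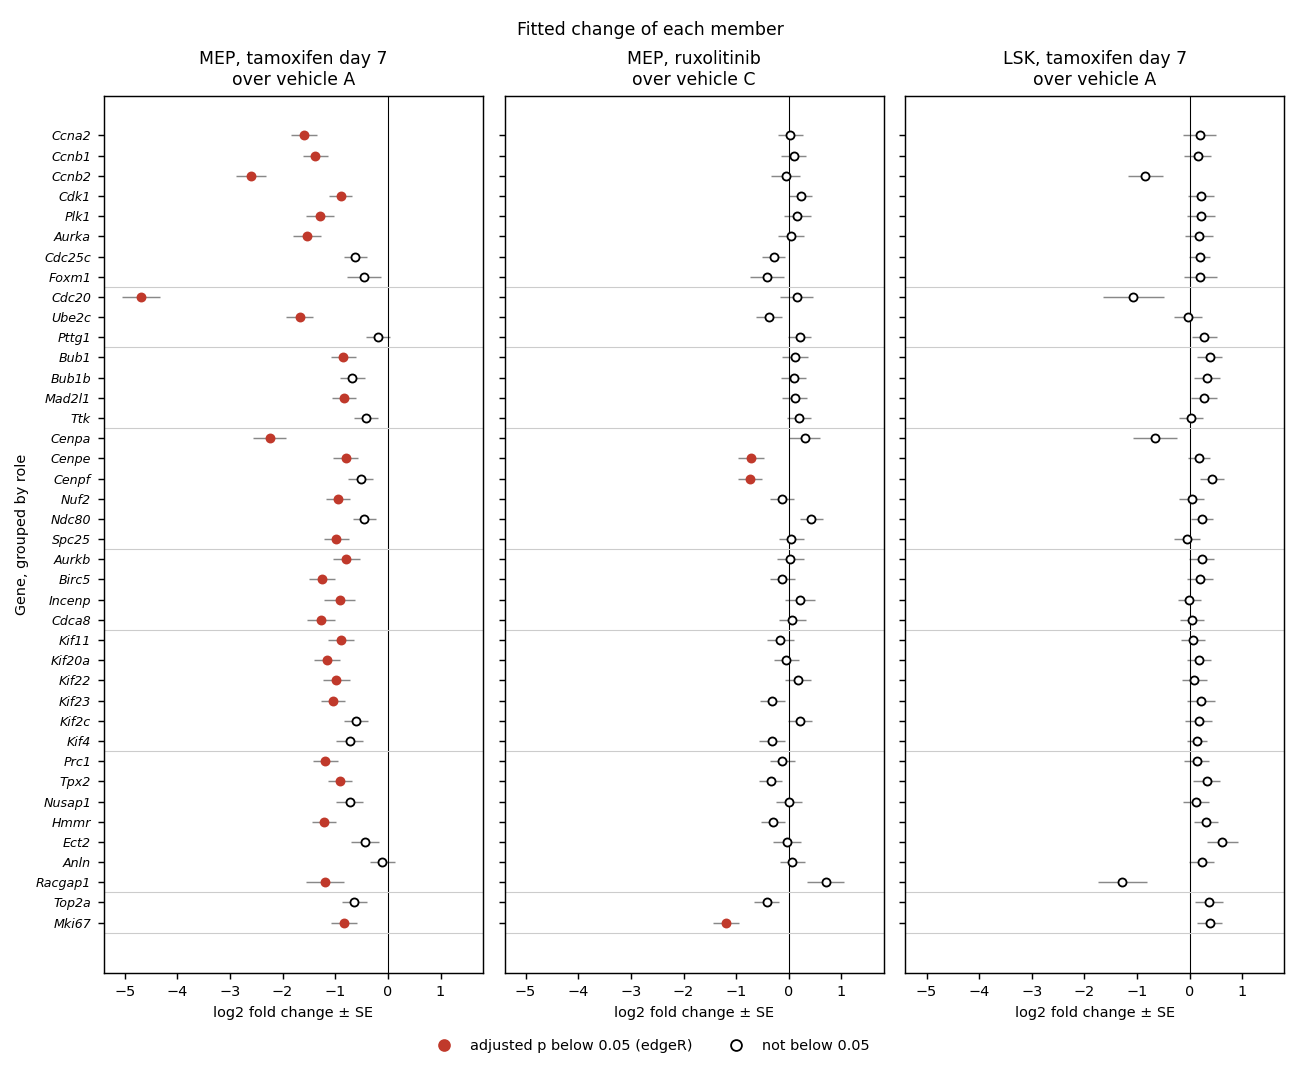
Log2 change of each member with its SE in MEP at tamoxifen day 7 over vehicle A, MEP under ruxolitinib over vehicle C, and LSK at tamoxifen day 7 over vehicle A, with filled points for an edgeR adjusted p below 0.05. In the first panel 27 points are filled and all lie below 0, in the second 3 are filled, and in the third none.

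The difference between the 2 treatments was tested as the tamoxifen day 7 change minus the ruxolitinib change in MEP, each against its own vehicle. Of the 40 members 23 had the lower response to tamoxifen and none the higher, where 9.46% of all genes, and 27.9% of expressed genes, were lower by the same edgeR rule. The member median of this difference was -0.90, with 38 below 0, against 1.38 over all genes and -0.50 over expressed genes. Cdc20 differed by -4.84 ± 0.46 (edgeR adjusted p = 1.49e-07), Ccnb2 by -2.54 ± 0.39 (edgeR adjusted p = 7.59e-05), Cenpa by -2.54 ± 0.43 (edgeR adjusted p = 0.000196) and Racgap1 by -1.90 ± 0.50 (edgeR adjusted p = 0.00517). Mki67 (0.36 ± 0.35, edgeR adjusted p = 0.405) and Cenpf (0.22) were the 2 members above 0, and neither passed. The treatments ran in different batches, so treatment and batch cannot be told apart in this difference beyond what each vehicle corrects. The MEP vehicle libraries of batches A and C bear the same animal numbers, which the edgeR fit did not take into account. With 1 library left out the lowest count was 15, without vehicle C replicate 1 or without vehicle C replicate 2. Scaling by library totals alone gave 10 lower and 4 higher, and expressed genes fitted alone gave 14 lower and 2 higher.

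In LSK no member passed at day 3, at day 7 or under ruxolitinib. Few genes of any kind passed: edgeR called 0% of 26930 genes at day 3, 0.104% at day 7 and 0.0223% under ruxolitinib, and DESeq2 called no member in any of these. At an unadjusted p below 0.05, the members that differed numbered 0 at day 3, 3 at day 7 and 1 under ruxolitinib, against 3.78%, 8.93% and 8.92% of all genes. The member median log2 change was -0.18 at day 3, with 35 below 0, but 0.08 without day 3 replicate 3. It was 0.19 at day 7, with 7 below 0. Under ruxolitinib it was 0.43, with 3 below 0. The corresponding medians over all genes were -0.02, -0.09 and -0.25, and over expressed genes -0.13, -0.07 and 0.15. All ruxolitinib libraries lay above both vehicle C libraries in 23 members, against 8.46% of all genes, and all day 7 libraries lay above all vehicle A libraries in 3 (Hmmr, Top2a and Cenpf), against 1.34%. With both vehicle batches pooled as the control, 6 members passed as higher under ruxolitinib, where 6.51% of all genes were higher and 14.1% lower, and here too vehicle libraries of equal animal number count as separate. Summed over the 40, the level was 9435 ± 1873 CPM under ruxolitinib (SD, n = 3), against 6988 ± 124 CPM under vehicle C (SD, n = 2). The summed level was 6201 ± 403 CPM under vehicle A (SD, n = 4), 5576 ± 2020 CPM at day 3 (SD, n = 3) and 6753 ± 386 CPM at day 7 (SD, n = 4). At day 3, replicate 3 stood apart from the other LSK libraries, with 39 of 40 members below the vehicle A mean and a median log2 ratio of -0.92.

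The 4 members with the lowest log2 changes in LSK at day 7 were uneven over its libraries. Cdc20 had 229.7, 298, 191 and 213 CPM under vehicle A, 310.1, 235 and 115.5 CPM at day 3 and 169.8, 24.1, 16.5 and 233 CPM at day 7. Ccnb2 had 169.9, 201, 195 and 200.3 CPM under vehicle A, 222, 191 and 113 CPM at day 3 and 129, 71.1, 48.6 and 179 CPM at day 7. Cenpa had 106, 147, 135 and 166 CPM under vehicle A, 217, 177 and 104 CPM at day 3 and 149, 50.6, 22.6 and 129 CPM at day 7. In each of these 3, day 7 replicates 2 and 3 lay below every vehicle A library and replicate 4 lay within the vehicle A range, as did replicate 1 for Cenpa alone. Racgap1 had 64.2, 184, 131 and 116.5 CPM under vehicle A, 154, 149.5 and 82.0 CPM at day 3 and 28.0, 24.25, 26.1 and 126 CPM at day 7, so that only replicate 4 was high. The log2 changes at day 7 were -1.07 ± 0.58 for Cdc20, -0.84 ± 0.33 for Ccnb2, -0.66 ± 0.42 for Cenpa and -1.28 ± 0.46 for Racgap1, with edgeR adjusted p of 0.693, 0.368, 0.821 and 0.295. Without day 7 replicate 4, Ccnb2 (-1.21) and Racgap1 (-2.25) passed as lower. The LSK library of replicate 4 is labelled as animal 7, as is MEP day 7 replicate 3, in which Cdc20 stood at 21.25 CPM.

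Not all members split in this way, and day 7 replicate 3 was the highest day 7 library for Ccnb1, Cdk1, Plk1, Aurka and Birc5. The same library lay below every vehicle A library for Kif11 (194 CPM, against 226 to 245 CPM), Cdca8, Ube2c and Spc25. Ccnb1 had 287, 294, 271 and 279.4 CPM under vehicle A, 333, 255 and 142 CPM at day 3 and 316, 324, 369 and 242 CPM at day 7. Cdk1 had 226, 202, 157 and 183.5 CPM under vehicle A, 215, 183 and 107 CPM at day 3 and 244, 223, 258 and 167 CPM at day 7. Plk1 had 133, 174, 160.2 and 135 CPM under vehicle A, 196, 146.5 and 78.7 CPM at day 3 and 179.6, 157, 212 and 151 CPM at day 7. Replicate 3 was the lowest day 3 library in each. Aurka had 112, 157, 121 and 108 CPM under vehicle A, 141.5, 121 and 63.4 CPM at day 3 and 145, 123, 172 and 127 CPM at day 7. Birc5 had 165, 164, 162 and 153 CPM under vehicle A, 173, 161 and 79.5 CPM at day 3 and 187, 179, 219 and 149 CPM at day 7. Mki67 had 208, 200.4, 272 and 227 CPM under vehicle A, 258, 222 and 111 CPM at day 3 and 287, 335, 309 and 247 CPM at day 7. No Mki67 library at day 7 lay below the vehicle A range. At day 7 the remaining members with library values elsewhere ran over 269.8 to 393 CPM for Bub1b, 75.5 to 89.15 for Ndc80, 194 to 285 for Kif11, 209 to 279.9 for Tpx2, 685 to 907 for Top2a and 11.2 to 18.9 for Foxm1. Under vehicle A the same genes ran over 219 to 337, 58.3 to 82.4, 226 to 245, 168 to 218, 572 to 682 and 8.68 to 20.2 CPM in that order, and at day 3 over 139 to 303, 41.1 to 77.3, 137 to 287, 90.4 to 227, 287 to 727 and 5.33 to 12.1 CPM. Of these 6, Top2a alone lay wholly above vehicle A at day 7. Granulocyte and monocyte progenitor markers summed to 8066 to 16000 CPM in LSK at day 7, against 1581 to 5165 CPM under vehicle A, and erythroid markers to 1327 to 1997 CPM, against 1614 to 3453 CPM. By edgeR, 2 of 10 granulocyte and monocyte progenitor markers were higher (list median log2 change 1.46) and 1 of 12 erythroid markers lower (-0.72). Also higher were 3 of 9 neutrophil markers (2.44) and 1 of 8 mast cell and basophil markers (1.52). No marker of the other lists was called, and the macrophage list had a median of -2.32. Over all genes 0.0557% were higher and 0.0483% lower. The part of these markers in the member values was not tested.

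Under ruxolitinib, Mki67 in LSK had 444, 389.9 and 352 CPM, against 263.5 and 239 CPM under vehicle C (0.65 ± 0.32, edgeR adjusted p = 0.559), above 0 here and below 0 in MEP. Ccnb2 had 434.5, 320.5 and 272 CPM under ruxolitinib, against 203 and 203 CPM under vehicle C (0.75 ± 0.43, edgeR adjusted p = 0.587). Cenpa had 304, 212 and 185 CPM, against 124 and 157 CPM under vehicle C (0.73 ± 0.55, edgeR adjusted p = 0.644). None of the 3 passed. Cdc20 had 509, 433 and 339 CPM under ruxolitinib, against 247 and 351.5 CPM under vehicle C, Ccnb1 625, 443.5 and 376 CPM, against 370.5 and 343 CPM, and Cdk1 410.1, 278 and 239.5 CPM, against 243.5 and 223.5 CPM. Plk1 had 326.5, 217 and 169.7 CPM, against 149 and 222 CPM, Aurka 276, 181 and 157 CPM, against 155 and 168 CPM, and Birc5 351, 235 and 202 CPM, against 192 and 186 CPM. Replicate 1 under ruxolitinib was the highest library over the members as a whole, with a median log2 ratio of 0.75, against 0.33 and 0.22 in the other 2. Bub1b had 454, 403 and 299.7 CPM under ruxolitinib, against 304 and 328 CPM under vehicle C, Ndc80 152, 126 and 133 CPM, against 83.6 and 94.7 CPM, and Kif11 333, 321 and 292 CPM, against 277 and 206 CPM. Tpx2 had 307, 259 and 241 CPM, against 240.5 and 186.5 CPM, Top2a 976, 806 and 720.0 CPM, against 805 and 586 CPM, and Foxm1 28.5, 23.9 and 19.7 CPM, against 24.5 and 23.7 CPM. With 2 vehicle C libraries, each of these differences rests on few values. Between day 7 and day 3 in LSK no member passed (3 at an unadjusted p below 0.05, against 7.93% of all genes), where edgeR called 0.00743% of all genes. No member passed between the tamoxifen day 7 and ruxolitinib responses in LSK either (2 at an unadjusted p below 0.05, against 6.71% of all genes), where 0.00371% of all genes did.

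Under vehicle A, 23 of the 40 mitosis genes were higher in MEP than in LSK, both mutant, and 1 was lower. In the fit over all 32 libraries, by the same edgeR rule, 8.7% of all genes and 24.7% of expressed genes were higher and 8.71% of all genes were lower. The member median was 0.80 on the log2 scale, against -0.27 over all genes and 0.22 over expressed genes. All MEP libraries lay above all LSK libraries in 32 members, against 10.6% of all genes. The largest excesses were in Cenpa (1.73 ± 0.40, edgeR adjusted p = 0.0018), Ccna2 (1.66 ± 0.30, edgeR adjusted p = 7.89e-05), Ube2c (1.61 ± 0.29, edgeR adjusted p = 8.61e-05) and Hmmr (1.54 ± 0.26, edgeR adjusted p = 3.76e-05). Scaled over all libraries, Cenpa averaged 387 ± 59.8 CPM in MEP (SD, n = 3) and 117 ± 20.7 CPM in LSK (SD, n = 4), and Plk1 370.2 ± 76.9 CPM and 128 ± 22.2 CPM. Racgap1 was the lower one (-1.41 ± 0.48, edgeR adjusted p = 0.0365), with groups that overlapped. It did not pass under the replicate block (edgeR adjusted p = 0.0548), nor without LSK vehicle A replicate 2 or 3 or MEP vehicle A replicate 1 or 3 (edgeR adjusted p of 0.116, 0.0634, 0.181 and 0.132). Cdc20 did not pass (1.17 ± 0.51, edgeR adjusted p = 0.128). The number of members called in either direction was 15 without MEP vehicle A replicate 1, and also 15 when libraries were scaled by their totals alone. Animal number 12 occurs in both cell types under vehicle A, which the edgeR fit did not take into account. With the animal as a random block, limma voom called 24 members higher and 1 lower.

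At day 7 of tamoxifen no member was higher in MEP than in LSK and 2 were lower, where 4.76% of all genes were lower by the same edgeR rule. The member median was -0.33, with 37 below 0, and all MEP libraries lay below all LSK libraries in 13 members, against 10.1% of all genes. The 2 called were Cdc20 (-2.53 ± 0.57, edgeR adjusted p = 0.00299), whose groups overlapped, LSK replicates 2 and 3 being low, and Kif23 (-1.53 ± 0.30, edgeR adjusted p = 0.000584), whose groups did not. Kif23 averaged 34.05 ± 3.28 CPM in MEP (SD, n = 3) and 98.1 ± 21.4 CPM in LSK (SD, n = 4). The count was 5 without LSK day 7 replicate 3, 4 when libraries were scaled by their totals alone and 11 among expressed genes fitted alone, with 10 lower and 1 higher. Animal numbers 15, 18 and 7 occur in both cell types at day 7, which the edgeR fit did not take into account. With the animal as a random block, limma voom called 2 members lower and none higher.

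**Figure D5:**
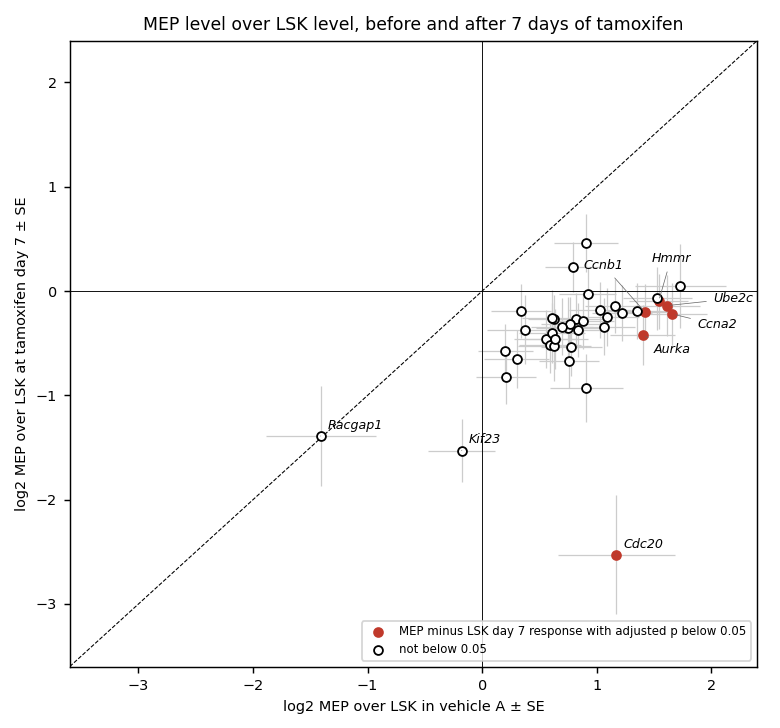
Log2 difference of each member between MEP and LSK, with SE, at tamoxifen day 7 (vertical axis) and under vehicle A (horizontal axis). Filled points mark the 6 members whose day 7 response differed between the cell types, and the dashed line marks equal differences. Member medians are -0.33 at day 7 and 0.80 under vehicle A, and 37 of the 40 points lie below 0 on the vertical axis.

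The difference in response between the cell types was tested itself, as the MEP change minus the LSK change, each against its own vehicle. At day 7 it was below 0 for 39 of 40 members, with a median of -1.16, against 0.22 over all genes and -0.32 over expressed genes, and 6 members passed as lower, where 0.162% of all genes did. They were Cdc20 (-3.70 ± 0.76), Ccna2 (-1.88 ± 0.42), Aurka (-1.81 ± 0.41), Ube2c (-1.75 ± 0.41), Hmmr (-1.64 ± 0.37) and Ccnb1 (-1.62 ± 0.39), with edgeR adjusted p between 0.0178 and 0.0487. Ccnb2 did not pass (-1.84 ± 0.46, edgeR adjusted p = 0.0668), and Racgap1 differed by 0.03. At an unadjusted p below 0.05, 35 members differed, as did 11.2% of all genes. The number called depended on single libraries and on the method. It was 0 without MEP vehicle A replicate 2, LSK day 7 replicate 1, MEP day 7 replicate 2 or MEP day 7 replicate 3. It was 1 without LSK vehicle A replicate 1 or LSK vehicle A replicate 4, 2 without MEP vehicle A replicate 1 or MEP day 7 replicate 1, and 3 without LSK vehicle A replicate 3 or MEP vehicle A replicate 3. DESeq2 called 20, and limma voom with the animal as a random block, which allows for MEP and LSK libraries that share an animal number, called 3. At day 3 no member passed (0 at an unadjusted p below 0.05, and 0 with DESeq2), where edgeR called 0.0529% of all genes, and the median was -0.05. For ruxolitinib none passed either (3 at an unadjusted p below 0.05, against 15% of all genes), where edgeR called 0.292% of all genes, and the median was -0.26. Mki67 was nearest (-1.65 ± 0.43, edgeR adjusted p = 0.0748) and passed with DESeq2.

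Between the vehicle groups, vehicle C over vehicle A, 39 of the 40 members had a log2 difference above 0 in MEP, with a median of 0.30, against -0.27 over all genes and 0.32 over expressed genes. In LSK 28 were above 0, with a median of 0.17, against -0.23 and 0.31. Of the members 2 passed in MEP and 1 in LSK. In MEP, Racgap1 was higher under vehicle C than under vehicle A (1.76 ± 0.36, edgeR adjusted p = 0.0112), as was Ccna2 (1.21 ± 0.24, edgeR adjusted p = 0.0103), where 2.75% of all genes were higher. In LSK, Ccna2 was higher under vehicle C (1.85 ± 0.36, edgeR adjusted p = 0.0229), where 0.728% of all genes were higher. Ccna2 had 51.4, 72.3 and 69.2 CPM in MEP under vehicle C, against 22.8, 30.5 and 30.1 CPM under vehicle A, and 25.5 and 55.25 CPM in LSK under vehicle C, against 10.3, 9.92, 14.8 and 9.79 CPM under vehicle A. Equal animal numbers recur in these groups, so the vehicle libraries were also fitted alone with the animal number as a block, an alternative chosen after seeing the data. Racgap1 then differed by 1.60 ± 0.24 in MEP (edgeR adjusted p = 0.000566) and Ccna2 by 1.16 ± 0.19 (edgeR adjusted p = 0.000894), and Mki67 and Foxm1 passed as higher too, where 4.31% of all genes were higher. In LSK, Ccna2 differed by 1.87 ± 0.34 (edgeR adjusted p = 0.00742), and it was the 1 member called, where 2.44% of all genes were higher. Without the block, the vehicle libraries fitted alone gave no called member in either cell type. For these 2 genes a level in batch A and a level in batch C differ before any treatment, and their changes were taken only within a batch.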

How the data were processed

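RNA-seq was measured in 32 libraries, 16 of MEP and 16 of LSK, in 10 groups of 2 to 4. The authors deposited 1 table of raw counts per gene symbol. Per the submitters' processing notes, reads were handled with STAR and featureCounts on mm10. TriZOL lysis of the sorted cells, Direct-Zol extraction and a Takara paired-end kit are named per the labels' protocols. The sources used here state no versions, annotation or strand setting, so overlapping and antisense genes cannot be told apart. Of 33924 symbols, 28553 (84.2%) matched GENCODE M21, used for exon lengths, and 933 had no count in any library.

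The counts were fitted with edgeR 4.0.16 (quasi-likelihood F test, TMM factors, filterByExpr with a minimum count of 10) over all libraries of a cell type (25274 genes in MEP, 26930 in LSK), or over all 32 for comparisons between cell types (28378 genes). Tests were two-sided, with Benjamini-Hochberg adjustment over all genes tested and a threshold of 0.05. SE is the absolute log2 change divided by the square root of F. Expressed genes have a mean of at least 10 CPM in the fit. limma 3.58.1, DESeq2 1.42.0, R 4.3.3 and Python 3.11.15 (pandas 2.3.3, numpy 2.4.6, scipy 1.17.1, matplotlib 3.10.9) served for the rest. Of the fits, only the edgeR comparison of MEP day 7 with vehicle A was tested on simulated data. Alternatives were RLE size factors, DESeq2, no filter, expressed genes alone, a GC offset, the compared groups alone, pooled vehicles, blocks for replicate number or animal, each replicate left out and, added after seeing the data, library totals alone and an animal block over the vehicle libraries alone.

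Members and lists were chosen with earlier results of these data known. Named with library values are 14 representatives (Cdc20, Ccnb1, Cdk1, Plk1, Aurka, Bub1b, Cenpa, Ndc80, Birc5, Kif11, Tpx2, Top2a, Mki67, Foxm1) and up to 6 called members with the largest changes per treatment comparison. Members that did not pass where most did, and up to 4 called genes of each other list, are named too. Racgap1 and the library values of Ccnb2 and Ccna2 outside those comparisons were chosen after their values were seen. Within a group no libraries were duplicates: the chi-square per degree of freedom between them was at least 13.7. Libraries of different groups, such as vehicle A and vehicle C, were not compared in this way.

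Groups share replicate numbers in the labels. Deviations from group means of same-numbered libraries correlated at -0.268 to 0.03 between MEP day 7 and vehicle A. Between MEP day 7 and day 3 they correlated at 0.134, 0.156 and 0.187. Differently numbered libraries of MEP day 7 and day 3 correlated at -0.315 to 0.366, and the animal numbers of these groups differ in the labels. The replicate numbers were therefore not shown to pair the libraries. Between vehicle C and vehicle A, where animal numbers agree, the correlations were 0.682, 0.621 and 0.286 in MEP and 0.539 and 0.676 in LSK.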

Additional observations from a re-analysis of the deposited data

Results flagged for a closer look

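Among 21 named members, 63 levels in the groups of 4 libraries were screened for a single library far from the rest, a screen that chance passes in about 1 group in 20. It picked out 2. Ccna2 stood at 14.8 CPM in LSK vehicle A replicate 3, against 9.79 to 10.3 CPM in the other 3 libraries, a gap of 0.891 of the group's range. Racgap1 stood at 126 CPM in LSK day 7 replicate 4, against 24.2 to 28 CPM in the other 3, a gap of 0.963 of the range.

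The response at day 7 differed between the cell types in 6 members by the test of the difference itself, the MEP log2 change minus the LSK log2 change. The difference was -3.7 for Cdc20, -1.88 for Ccna2, -1.81 for Aurka, -1.75 for Ube2c, -1.64 for Hmmr and -1.62 for Ccnb1, and no member had a called difference above 0. With 1 library left out the number called ran over 0 to 8, and limma voom with the animal as a random block called 3.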

How the results depend on the processing

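Over 15 counts of called members, 214 of 262 settings stayed within 1.5 times the reported count. Over 107 results of single genes, 1587 of 1647 alternative values kept direction and side of the threshold, 31 newly passed, 29 no longer passed and none reversed. The cause of each change below was not tested. Library totals alone, added after seeing the data, gave 1 called member at MEP day 3, 17 at MEP day 7 (median -0.42, against 0.73 over all genes), 11 under ruxolitinib in MEP, 11 for MEP day 7 over day 3, 14 for the day 7 minus ruxolitinib response, 15 for MEP over LSK under vehicle A, 4 at day 7 and 1 for the ruxolitinib response difference between cell types. Expressed genes alone gave 3 at MEP day 3, 5 under ruxolitinib in MEP, 11 for MEP over LSK at day 7, and 20 and 1 for the response differences between cell types at day 7 and under ruxolitinib. DESeq2 gave 1 at MEP day 3 and 20 and 1 for those response differences, RLE factors gave 10 and 1, no filter gave 1 at MEP day 3 and 1 for ruxolitinib, and the compared groups alone gave 1 at MEP day 3. Pooled vehicles gave 5 under ruxolitinib in MEP, where 9.03% of all genes were higher and 48.9% lower. They gave 6 in LSK, where 6.51% of all genes were higher and 14.1% lower.

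With 1 replicate left out, the counts ran over 0 to 1 at MEP day 3, 14 to 25 at MEP day 7, 1 to 4 under ruxolitinib in MEP, 6 to 22 for MEP day 7 over day 3 and 15 to 29 for the day 7 minus ruxolitinib response in MEP. In LSK they ran over 0 to 0 at day 3, 0 to 2 at day 7, 0 to 0 under ruxolitinib, 0 to 1 for day 7 over day 3 and 0 to 1 for the day 7 minus ruxolitinib response. Between cell types they ran over 15 to 23 under vehicle A, 2 to 5 at day 7, and 0 to 0, 0 to 8 and 0 to 1 for the response differences at day 3, day 7 and under ruxolitinib. The replicate block gave 26 at MEP day 7 and 24 for MEP day 7 over day 3, though the replicate numbers were not shown to pair the libraries. It gave 19 for MEP over LSK under vehicle A and 7 for the day 7 response difference, and moved no count by over 1.5 times. The animal as a random block in limma voom gave 3 for that difference.

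The design has 2 to 4 libraries a group, and MEP day 7 replicate 2, with the lowest depth (11160696 counts), moved several counts. Depth did not limit the members' own counts, of which the lowest was 87.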

Other observations

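The genes of DNA replication were counted beside those of mitosis. In MEP at day 7, 16 of 40 replication genes were lower than under vehicle A and none was higher, with a median log2 change of -0.76. Over all genes 7.03% were lower, and 20.7% of expressed genes. The largest falls were in Rfc5, a subunit of the clamp loader (-3.45 ± 0.44, edgeR adjusted p = 4.21e-06), Mcm6, of the replicative helicase (-2.24 ± 0.45, edgeR adjusted p = 0.00149), Rrm2, of ribonucleotide reductase (-2.23 ± 0.27, edgeR adjusted p = 1.73e-06), and Dut, which removes dUTP (-2.20 ± 0.39, edgeR adjusted p = 0.000322). At day 3, Mcm6 (1.73 ± 0.43, edgeR adjusted p = 0.0414) and Dut (1.71 ± 0.36, edgeR adjusted p = 0.0156) were higher than under vehicle A, where 0.886% of all genes were higher. Under ruxolitinib 3 of the 40 were higher than under vehicle C, where 3.43% of all genes were higher, Cdt1, a licensing factor (1.46 ± 0.43, edgeR adjusted p = 0.00982), Pold1, of DNA polymerase delta (1.04 ± 0.29, edgeR adjusted p = 0.00709), and Dut (0.93 ± 0.37, edgeR adjusted p = 0.0464). In LSK no replication gene was called at day 3, at day 7 or under ruxolitinib.

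Of 23 tested genes of the E2F and DREAM regulators and of cell cycle exit, 4 were lower in MEP at day 7, a share near the 20.7% of expressed genes: Cdkn1a, which encodes the CDK inhibitor p21 (-4.20 ± 0.92, edgeR adjusted p = 0.00314), the repressors E2f4 (-1.48 ± 0.31, edgeR adjusted p = 0.00189) and E2f7 (-1.43 ± 0.27, edgeR adjusted p = 0.000624), and Mybl2, the MYB partner of MuvB (-0.84 ± 0.24, edgeR adjusted p = 0.0276). Under ruxolitinib, Cdkn1a (-4.09 ± 0.91, edgeR adjusted p = 0.00139), Rb1, the retinoblastoma protein gene (-1.12 ± 0.29, edgeR adjusted p = 0.00381), and Mybl2 (-0.60 ± 0.24, edgeR adjusted p = 0.0458) were lower than under vehicle C, where 38.5% of all genes and 6.76% of expressed genes were lower. Among the 74 other mitosis genes, 1 was higher under ruxolitinib in MEP, Ube2s, an enzyme of the anaphase-promoting complex (1.16 ± 0.39), and 3 were lower, Aspm (-0.79 ± 0.25), Cit (-0.74 ± 0.27) and Kif14 (-0.69 ± 0.26). The same fit called 3.43% of all genes higher and 38.5% lower, with 6.76% of expressed genes lower, so neither count exceeded those shares.

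Across the 40 members, the log2 change in MEP at day 7 had a Spearman correlation of -0.37 with the GC content of exons and of 0.40 with exon length. Genes are not independent replicates, and this is a description.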
